A study of Mus musculus with 6 samples.

Results

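Histone genes were taken as every entry of the deposited expression table whose symbol begins with Hist1h, Hist2h, Hist3h, Hist4h, H2af, H3f3 or H1f, which gave 53 of 13743 entries. Of these, 43 carry the symbol of a histone gene cluster and are called clustered here: 38 of the Hist1 cluster on chromosome 13, 3 of Hist2 on chromosome 3 and 2 of Hist3 on chromosome 11. They comprise 4 genes for the linker histone H1, 7 for H2A, 15 for H2B, 7 for H3 and 10 for H4. The other 10 are variant genes that lie outside the clusters: 2 for H1 (H1f0, H1fx), 6 for H2A (H2afj, H2afv, H2afx, H2afy, H2afy2, H2afz) and 2 for H3 (H3f3a, H3f3b). The classes rest on symbols, and Hist1h2al is annotated as a processed pseudogene.

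The expression table comes from paired-end RNA sequencing of mouse embryonic stem cells (ESCs) of strain C57/129. All 6 libraries were labelled Dgcr8-/-, that is, without the Drosha partner needed to make canonical microRNAs, so the genotype is shared by the controls. The 3 groups of 2 libraries, all taken 48 h after transfection, received a mimic of the microRNA miR-294 (group miR-294), an siRNA against Mbd2 (siMbd2), or a control transfection (CTR) whose content the labels do not state and which the table calls mock. The labels give 50 nM for mimics and siRNAs, describe each sample as an average over 2 sequencing lanes, and do not say whether replicates were separate cultures or whether the cells were 1 clone, so a p-value here speaks of the spread among these libraries alone.

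Nucleosomes wrap DNA around the core histones H2A, H2B, H3 and H4, and H1 binds the linker between them. Clustered genes are transcribed mainly in S phase, when new DNA needs histones, and their mRNA ends in a conserved stem-loop bound by the protein SLBP in place of a poly(A) tail. Variant genes are mostly expressed outside S phase as well, as polyadenylated mRNA, and their proteins are placed in chromatin without replication. As background, the family of miR-294 dominates the microRNAs of mouse ESCs and is known to speed their entry into S phase. The protein MBD2 binds methylated CpG sites and works with the NuRD repressor complex. Cell cycle phase was not measured here.

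The 3′ ends that set the classes apart are shown for 6 members named below, read from GENCODE M21 transcripts (GRCm38, the assembly also called mm10). Capitals mark the 6-base arms of the stem, which are exact reverse complements around a 4-base loop.
Hist1h3c: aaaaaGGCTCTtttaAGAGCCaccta
Hist1h4i: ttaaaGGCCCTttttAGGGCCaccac
Hist1h1c: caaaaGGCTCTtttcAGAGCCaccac
Hist1h4b: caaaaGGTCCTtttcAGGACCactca
Hist2h3c1: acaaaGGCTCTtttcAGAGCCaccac
H2afx: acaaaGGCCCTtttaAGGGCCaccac
These runs lie at chr13:23745042-23745067 (minus strand), chr13:22040961-22040986 (minus), chr13:23739507-23739532 (plus), chr13:23757361-23757386 (plus), chr3:96247322-96247347 (plus) and chr9:44335235-44335260 (plus), in the order printed.

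Of the 42 clustered genes with a protein-coding transcript, 30 (71.4%) held such a 16-base stem-loop (a stem that starts with GG, a loop that starts with TT) within 100 bases after the stop codon. Only 4 of 12908 listed genes outside the histones did (0.0310%). The version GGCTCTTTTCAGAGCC was the most frequent, in 17 clustered genes, and 5 each had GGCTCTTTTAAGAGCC or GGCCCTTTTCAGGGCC. Of the 12 clustered genes without a match, 7 have an annotated 3′ UTR shorter than the motif itself, so these annotations could not show it. The other 5 were Hist1h1a, Hist1h2bc, Hist1h3g, Hist1h4a and Hist2h2be. H2afx, whose mRNA is known in a stem-loop and in a polyadenylated form, was the only variant of 10 with a match. A terminal polyadenylation signal (AATAAA or ATTAAA in the last 50 bases of an annotated 3′ UTR) stood in 12 of 42 clustered genes (28.6%), against 9 of 10 variants and 85.1% of listed genes with a protein-coding transcript. The same 7 clustered genes with too short a 3′ UTR were counted as lacking the signal, although their annotations could not show it.

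Promoters from RefSeq (GRCm38.p6, 250 bases before to 50 after the start) were matched for 47 members. CCAAT, on either strand, occurred in 31 of 38 clustered genes (81.6%) and 6 of 9 variants, against 43.3% of 10751 listed genes. TATAAA occurred in 21 of the 38 clustered genes (55.3%) and 1 of the 9 variants, against 8.86% of listed genes. The mature strand of miR-294 is shown because its seed decides which mRNAs pair with it, with bases 2 to 8 in capitals (chr7:3220691-3220712, plus strand, RefSeq GRCm38.p6).
miR-294-3p: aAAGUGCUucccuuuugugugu
A 7-base match to this seed region (AGCACTT or GCACTTA) was found in an annotated 3′ UTR of 0 of 52 histone genes, against 21.2% of 12960 listed genes. No match says only that these letters are not in the annotated 3′ UTRs, 7 of which are shorter than 16 bases. Many others are short, such as 75 bases in Hist1h2ag and 114 in Hist1h3c, while some are long, such as 1700 bases in Hist3h2a. The shares were not matched for 3′ UTR length, so their difference cannot be read as a lack of sites in histone genes.

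Values are RPKM, reads scaled to gene length and to the reads of the library, so levels can be set beside each other between genes. They carry no read counts, and the depth of each library is unknown. The summed RPKM of the whole table was 493079 and 488568 in miR-294, 470333 and 464663 in siMbd2, and 450520 and 429460 in CTR. Mbd2, the siRNA target, stood at 11.3 and 12.3 RPKM in miR-294, 7.33 and 6.34 in siMbd2, and 26.8 and 27.9 in CTR. All 10 ESC markers sought were listed, among them Pou5f1 and Nanog, and their summed RPKM was 5828 and 5859 in miR-294, 7346 and 6988 in siMbd2, and 6473 and 6050 in CTR. Dppa5a alone read 2958 and 2989 RPKM in miR-294, 4715 and 4375 in siMbd2, and 3977 and 3642 in CTR. Without it the sum was 2871 and 2870 in miR-294, 2631 and 2612 in siMbd2, and 2496 and 2408 in CTR, so that miR-294 was lowest with Dppa5a and highest without. By limma at an adjusted p under 0.05, 5 of the 10 rose and 3 fell in miR-294 against CTR (27.7% and 36.8% of all tested genes), 4 rose and 2 fell in siMbd2 against CTR (19.5% and 14.9%), and 4 were higher and 4 lower in miR-294 than in siMbd2 (21.9% and 35.5%). With miR-294, Nanog, Sox2 and Dppa5a fell by 0.80, 0.51 and 0.36 on the log2 scale, and Utf1, Zfp42 and Pou5f1 rose by 0.77, 0.65 and 0.52. Of 8 feeder fibroblast markers 4 were listed, summing to between 5.73 and 7.40 RPKM in every library. Their 2 tested members moved apart with miR-294, and both fell with siMbd2. Thy1 read 3.60 and 3.37 RPKM in miR-294, 0.96 and 1.13 in siMbd2, and 1.56 and 1.47 in CTR, and its log2 change from CTR was 0.83 with miR-294 and -0.30 with siMbd2 (adjusted p = 9.2e-05 and 0.0369). Twist1 read 2.75 and 3.11 RPKM in miR-294, 3.70 and 3.48 in siMbd2, and 4.91 and 4.47 in CTR, and fell by 0.53 with miR-294 and by 0.31 with siMbd2 (adjusted p = 0.00116 and 0.0343). Col1a1 and Fbn1 stayed under 1 RPKM in every library. The 2 listed neural markers of 3 summed to 7.28 and 7.69 RPKM in miR-294, 15.1 and 13.1 in siMbd2, and 17.9 and 18.3 in CTR. Listed mesoderm (1 of 3) and endoderm (4 of 5) markers summed to under 5 RPKM in every library, at 3.98 and 4.59 in miR-294, 2.45 and 2.71 in siMbd2, and 1.37 and 1.53 in CTR for mesoderm. The part of these markers in the histone results was not tested. None of the 6 germ cell histone genes sought by symbol was listed.

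Variant genes made up nearly all of the summed RPKM of the listed histone genes. Some annotated clustered genes, such as Hist1h2ad and Hist1h4m, are not among the entries found by symbol, so their share is unknown. Mean levels of the variant genes over the 6 libraries ran between 14.3 RPKM (H2afy2) and 541 RPKM (H2afz), with a median of 73.3. H2afz, H3f3b and H3f3a ranked 128, 159 and 192 of 13743. Clustered genes ran between 0.102 RPKM (Hist1h2bn) and 8.61 RPKM (Hist1h2bc), with a median of 0.542, against a median of 8.33 RPKM over all listed genes. A mean of at least 1 RPKM was reached by 12 of 43 clustered genes (27.9%), by every variant, and by 83.2% of listed genes. The clustered genes held 3.98% and 3.87% of the summed histone RPKM in miR-294, 1.83% and 2.07% in siMbd2, and 2.90% and 2.51% in CTR. Selection of polyadenylated RNA is a step not given in the sources used here. Its effect on these levels was not tested.

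Among the clustered genes, the 12 with a terminal polyadenylation signal had a median of 0.899 RPKM, and the 30 without had 0.479 RPKM. The 30 include the 7 genes whose annotated 3′ UTR is too short to show a signal. The ranges overlapped widely. Hist1h2bc, the most abundant, had neither signal nor stem-loop in its annotation, Hist1h4i and Hist1h1c had both, and Hist1h3c had the stem-loop alone. Reads may be shared between these genes: of 36 clustered genes whose coding sequence has another histone coding sequence of equal length, 29 were at least 95% identical to the nearest. The rule for assigning such reads is another point not given in the sources used here, which leaves the value of a single clustered gene uncertain. Counts of clustered genes below may likewise not be counts of independent genes. Annotated genes that overlap a member were found for 11 of the 43 clustered and 7 of the 10 variant genes. No label or header says whether counting used strand, so reads of such neighbours may be mixed.

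**Figure D1:**
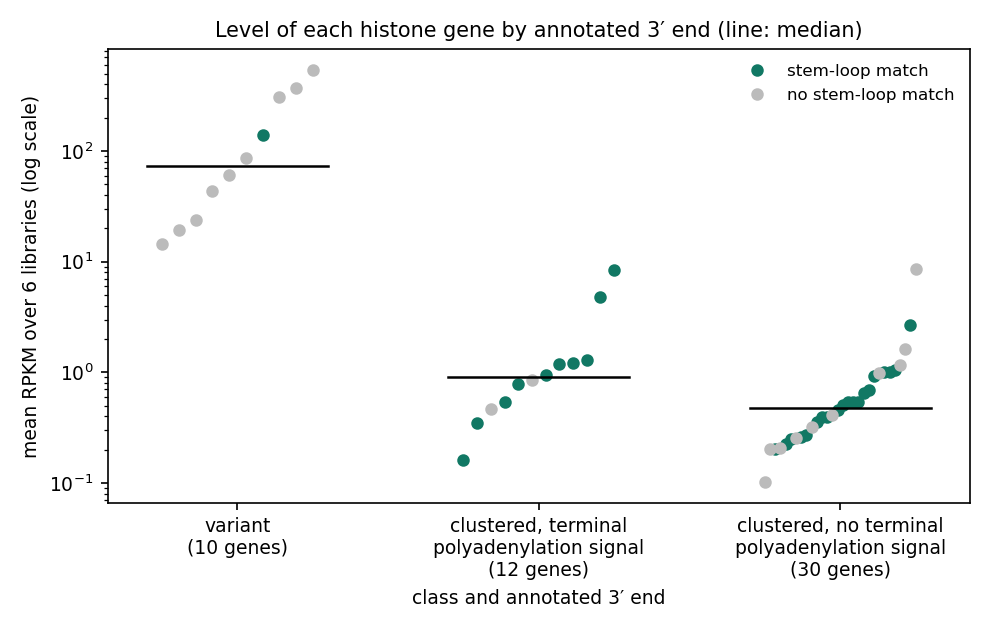
Mean RPKM over the 6 libraries (log scale) of each histone gene with a protein-coding transcript, by class and annotated terminal polyadenylation signal. Points are genes, green where a stem-loop match was found, and lines are medians: 73.3 RPKM for the 10 variants, 0.899 for the 12 clustered genes with the signal and 0.479 for the 30 without. The 30 include 7 genes with an annotated 3′ UTR too short to show a signal.

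Differences were tested in limma on log2(RPKM + 1) over the 11428 genes that averaged 1 RPKM or more, in a model with all 3 groups. "Rose" and "fell" refer to a Benjamini-Hochberg adjusted p under 0.05 over all of these genes, and every adjusted p below is from this fit. All 10 variants and 12 of the 43 clustered genes entered the test. The pseudocount makes log2 changes of genes near 1 RPKM smaller than their ratio of RPKM. With 2 libraries a group, the smallest p of an exact permutation test is 0.333, so all calls rest on the spread limma shares across genes. The 2 comparisons with CTR share its libraries. The pair of CTR libraries differed from each other more than the other pairs in 29 of 53 histone genes and in 9 of the 10 variants, with a median absolute log2 difference of 0.14 in miR-294, 0.11 in siMbd2 and 0.20 in CTR over the 53.

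In the comparison of miR-294 with CTR, which asks what the microRNA does to cells that make none, clustered histone mRNAs were higher and the variants were divided. Of the 12 tested clustered genes 8 rose and 0 fell, by limma and also at an unadjusted p under 0.05, beside 27.7% of all tested genes that rose and 36.8% that fell. Clustered genes entered by their mean over all 6 libraries. These counts thus describe only the 12 with a mean of at least 1 RPKM, of which 2 reached a mean of 5 RPKM. That mean includes miR-294, so the counts depend partly on the outcome tested. Hist1h2ae and Hist1h4b averaged 0.87 and 0.78 RPKM in siMbd2 and 0.81 and 0.66 in CTR, and entered through their miR-294 level. Hist3h2a and Hist3h2ba did so too, at 0.635 and 0.69 RPKM in siMbd2 and 1.025 and 1.14 in CTR. Over all 43, both miR-294 libraries lay above both CTR libraries for 32 genes (74.4%), below for 1, and overlapped for 10. Over the whole table the libraries lay apart in this way for 35.2% of entries, higher, and 43.5%, lower. For the 31 clustered genes under a mean of 1 RPKM, 24 lay higher and 1 lower, beside 35.9% and 31.4% of the 2315 entries at that level. Since bulk RNA was measured, more cells expressing these genes and more RNA per cell cannot be told apart.

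Hist1h4i (chromosome 13, 22040636 to 22041362, minus strand), for histone H4, read 13.1 and 11.5 RPKM in miR-294, against 6.84 and 6.42 in CTR. It rose with miR-294 (log2 change 0.80, SE 0.10, adjusted p = 1.70e-04). Hist1h3c (chromosome 13, 23744973 to 23745602, minus strand), for H3, read 4.95 and 4.40 RPKM in miR-294, against 2.71 and 1.48 in CTR (log2 change 0.90, SE 0.17, adjusted p = 0.00163). Hist1h2ae, for H2A, read 1.70 and 2.28 RPKM in miR-294 and 0.64 and 0.98 in CTR (log2 change 0.72, adjusted p = 0.00163). In each of these genes the groups did not overlap.

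Hist1h3g, for H3, read 2.77 and 2.23 RPKM in miR-294 and 1.58 and 1.11 in CTR, and rose by 0.58 on the log2 scale (adjusted p = 0.00444). Hist3h2a (chromosome 11, 58954685 to 58956830, plus strand), an H2A gene of the Hist3 cluster that overlaps Trim17, read 1.68 and 2.13 RPKM in miR-294 and 1.15 and 0.90 in CTR, and rose by 0.52 (adjusted p = 0.00357). Hist1h2bc (chromosome 13, 23684199 to 23692908, plus strand), for H2B, read 12.1 and 13.3 RPKM in miR-294 and 9.35 and 6.75 in CTR (log2 change 0.61, SE 0.18, adjusted p = 0.0147). This call ended without miR-294 replicate 2 (adjusted p = 0.0747) or without CTR replicate 2 (adjusted p = 0.0840).

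The calls on a pair of genes near 1 RPKM were the least firm. Hist3h2ba, for H2B, read 2.56 and 1.60 RPKM in miR-294 and 1.23 and 1.05 in CTR (log2 change 0.51, adjusted p = 0.0370), and its call ended with a pseudocount of 0.1 (adjusted p = 0.0710) and without miR-294 replicate 1, CTR replicate 1 or CTR replicate 2 (adjusted p = 0.248, 0.0658 and 0.128). Hist1h4b, for H4, read 1.73 and 1.47 RPKM in miR-294 and 0.81 and 0.51 in CTR (log2 change 0.65, adjusted p = 0.0181), with an adjusted p of 0.0850 without miR-294 replicate 1 and 0.0951 without CTR replicate 2.

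The 4 tested clustered genes that were not called were Hist1h1c, Hist1h2af, Hist1h2ag and Hist1h4d. Hist1h1c (chromosome 13, 23738808 to 23740367, plus strand), the most abundant clustered H1 gene, read 5.21 and 5.51 RPKM in miR-294 and 7.08 and 5.10 in CTR (log2 change -0.14, adjusted p = 0.361). Its groups overlapped, whereas the other 3 clustered H1 genes, none above 0.51 RPKM in any library, lay higher in both miR-294 libraries. Hist1h2af had the widest spread, at 1.73 and 0.40 RPKM in miR-294 and 2.47 and 0.98 in CTR. Without miR-294 replicate 1 it was called lower (log2 change -0.91, adjusted p = 0.0262), and without CTR replicate 2 Hist1h1c was called lower (log2 change -0.35, adjusted p = 0.0125). The only clustered gene whose miR-294 libraries both lay below CTR was Hist2h3c1, an H3 gene of the Hist2 cluster, at 0.86 and 0.97 RPKM in miR-294 and 1.16 and 1.15 in CTR. It was under the level tested. Hist1h4d and Hist1h2ag had log2 changes of 0.21 and 0.03 (adjusted p = 0.147 and 0.859), and Hist1h4d was called higher after quantile normalization (log2 change 0.35, adjusted p = 0.0346).

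**Figure D2:**
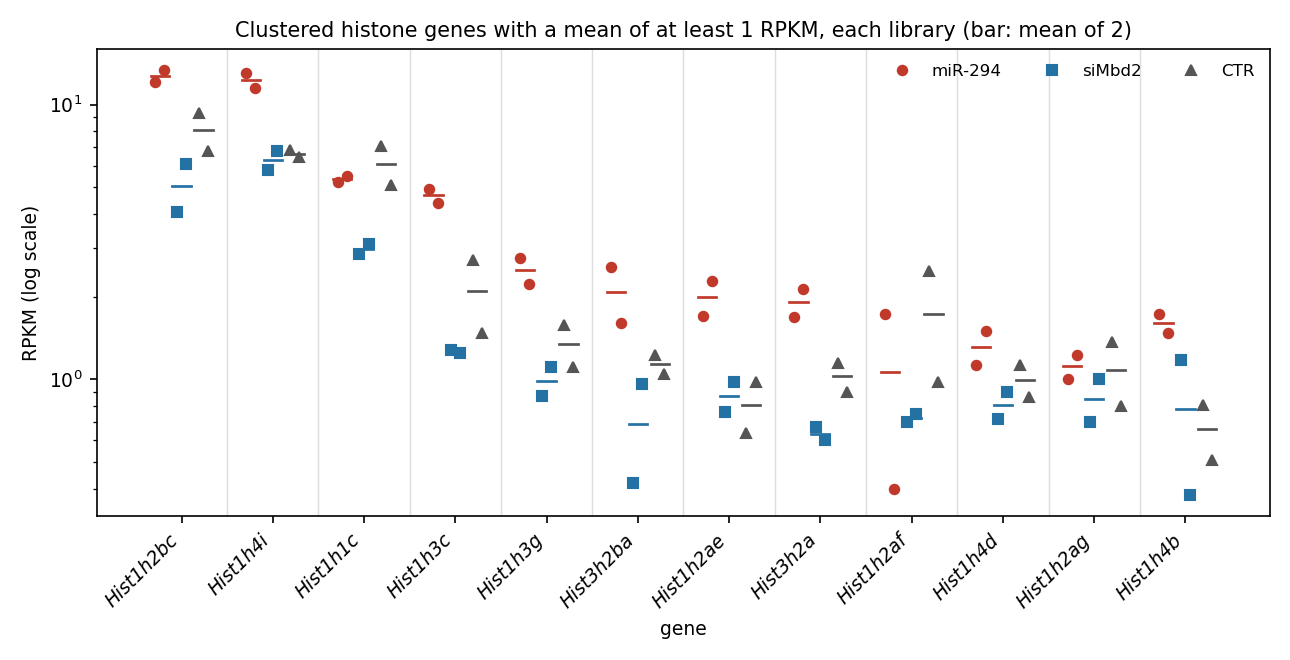
RPKM (log scale) of the 12 clustered histone genes tested, in each of the 2 libraries of miR-294 (circles), siMbd2 (squares) and CTR (triangles), with bars at the means. Hist1h4i, Hist1h3c and Hist1h2ae stand higher in both miR-294 libraries than in any other library.

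By histone type, miR-294 lay above CTR without overlap in 3 of 4 H1, 4 of 7 H2A, 13 of 15 H2B, 5 of 7 H3 and 7 of 10 H4 genes. The summed RPKM of all 43 clustered genes was 71.9 and 69.6 in miR-294, 28.9 and 32.7 in siMbd2, and 48.0 and 37.2 in CTR. The mean was 70.7 ± 1.66 in miR-294, 30.8 ± 2.66 in siMbd2 and 42.6 ± 7.68 in CTR (SD, n = 2 each), a ratio of 1.66 between miR-294 and CTR. With the 3 most abundant genes left out, the sums over 40 genes were 41.5 and 39.3 in miR-294, 16.2 and 16.7 in siMbd2, and 24.8 and 18.9 in CTR. The ratio of miR-294 to CTR was lowest for the summed H1 genes (0.989) and ran to 1.45 for H2A, 1.74 for H2B, 1.89 for H3 and 1.93 for H4. The H1 ratio is mostly that of Hist1h1c, which averaged 5.36 of 6.64 RPKM in miR-294 and 6.09 of 6.715 in CTR. The other 3 H1 genes were those that lay higher in miR-294. The summed RPKM of the 10 variants was 1735 and 1727 in miR-294, 1546 and 1547 in siMbd2, and 1611 and 1443 in CTR, a ratio of 1.13 between miR-294 and CTR. The whole table also summed higher in miR-294, at 493079 and 488568 RPKM against 450520 and 429460 in CTR. All 53 histone genes together held 0.367% and 0.368% of that sum in miR-294, and 0.368% and 0.345% in CTR. These sums were described per library and not tested.

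**Figure D3:**
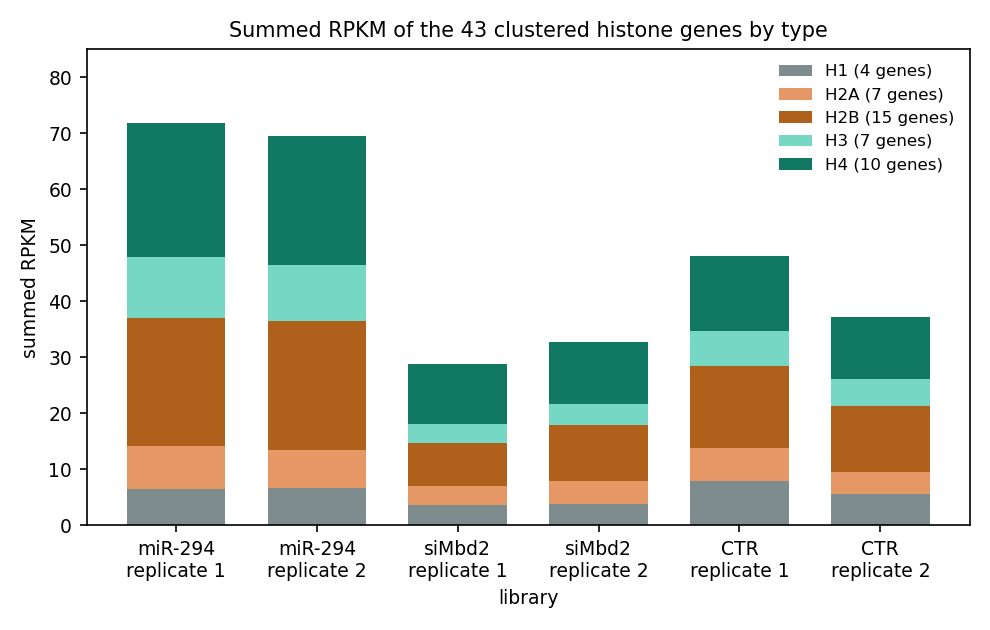
Summed RPKM of the 43 clustered histone genes in each library, stacked by histone type. The miR-294 libraries stand at 71.9 and 69.6, the siMbd2 libraries at 28.9 and 32.7, and the CTR libraries at 48.0 and 37.2 RPKM.

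Of the 10 variants, 4 rose with miR-294, 2 fell and 4 were not called, beside the same 27.7% and 36.8% of all tested genes. The miR-294 libraries lay above CTR for 4, below for 3 and overlapped for 3. Their median log2 change was 0.05, against 0.55 for the 12 tested clustered genes and -0.08 for all tested genes. The variants at the ends of this range were members of H2A. H2afy and H2afy2 encode macroH2A proteins, which carry a large extra domain and are known from repressed chromatin such as the inactive X chromosome. H2afy (chromosome 13, 56073619 to 56136361, minus strand) read 57.3 and 51.9 RPKM in miR-294, against 120.2 and 107 in CTR, and fell by 1.05 on the log2 scale (SE 0.07, adjusted p = 9.44e-06). H2afy2 (chromosome 10, 61738665 to 61784147, minus strand), whose gene overlaps Aifm2, read 8.92 and 7.72 RPKM in miR-294, against 20.2 and 18.8 in CTR, and fell by 1.14 (SE 0.09, adjusted p = 1.51e-05). Both genes thus fell by a similar size, and the ratio of H2afy to H2afy2 was 6.42 and 6.72 in miR-294, 5.59 and 6.11 in siMbd2, and 5.96 and 5.72 in CTR.

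H2afj (chromosome 6, 136808244 to 136810074, plus strand) encodes an H2A variant known to accumulate in senescent human fibroblasts. It read 24.6 and 25.7 RPKM in miR-294, against 15.5 and 12.5 in CTR, and rose by 0.81 (SE 0.10, adjusted p = 1.30e-04). H2afx (chromosome 9, 44334694 to 44336077, plus strand), whose protein is phosphorylated around DNA breaks, read 189 and 181 RPKM in miR-294, against 144 and 117 in CTR, and rose by 0.50 (SE 0.09, adjusted p = 0.00143). The only variant with a stem-loop match thus rose, as did H2afj without a match.

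H2afz (chromosome 3, 137864487 to 137866922, plus strand) encodes H2A.Z, placed beside the start sites of active genes, and H2afv encodes its near twin. H2afz, the most abundant histone gene of the table, read 598 and 597 RPKM in miR-294, against 489 and 438 in CTR (log2 change 0.37, SE 0.06, adjusted p = 0.00109). H2afv read 59.1 and 62.7 RPKM in miR-294 and 61.5 and 54.6 in CTR, and was not called (log2 change 0.07, adjusted p = 0.421), except higher without CTR replicate 1 (log2 change 0.15, adjusted p = 0.0383). H3f3a and H3f3b encode the same H3 variant protein, which is deposited at active genes and at repeats. H3f3b (chromosome 11, 116021912 to 116027962, minus strand) read 420.1 and 425 RPKM in miR-294, against 367 and 340.4 in CTR (log2 change 0.26, SE 0.06, adjusted p = 0.00438). H3f3a read 316 and 315 RPKM in miR-294, and 321 and 295 in CTR (log2 change 0.04, adjusted p = 0.605). After quantile normalization the calls on H2afz and H3f3b ended (log2 change 0.02 and 0.02, adjusted p = 0.778 and 0.786) and H3f3a was called lower (log2 change -0.26, adjusted p = 0.00217).

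The ratio of H3f3b to H3f3a, which does not depend on the scaling of a library, was 1.33 and 1.35 in miR-294, 1.05 and 1.13 in siMbd2, and 1.14 and 1.15 in CTR. The ratio of H2afz to H2afv was 10.1 and 9.52 in miR-294, 8.52 and 9.11 in siMbd2, and 7.94 and 8.02 in CTR. In both pairs the miR-294 libraries were the highest. The linker variants H1f0, associated with differentiated cells, and H1fx were not called, with log2 changes of -0.08 and -0.10 (adjusted p = 0.380 and 0.467). H1f0 read 23.4 and 23.2 RPKM in miR-294 and 25.7 and 23.5 in CTR. H1fx read 38.4 and 37.1 RPKM in miR-294 and 47.1 and 35.0 in CTR, with overlapping groups, and was called lower without CTR replicate 2 (log2 change -0.31, adjusted p = 0.00220).

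**Figure D4:**
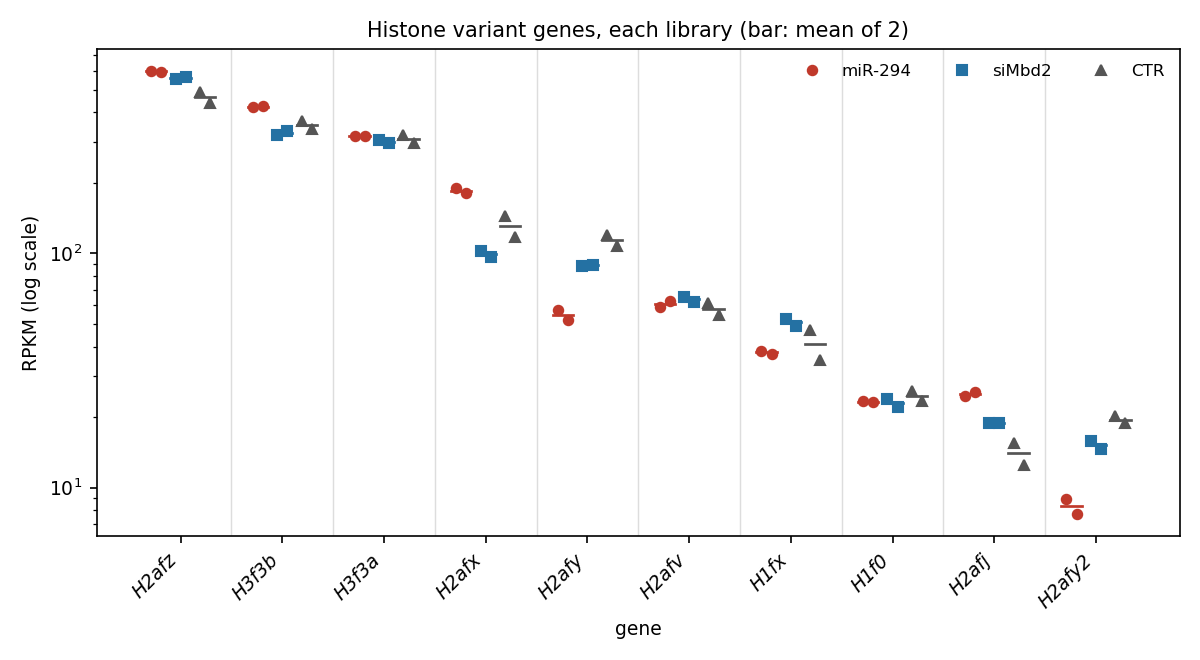
RPKM (log scale) of the 10 variant histone genes in each of the 2 libraries of miR-294 (circles), siMbd2 (squares) and CTR (triangles), with bars at the means. H2afy and H2afy2 stand lowest in the miR-294 libraries, and H2afx stands highest in miR-294 and lowest in siMbd2.

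In the comparison of siMbd2 with CTR, which asks how cells respond to an siRNA against Mbd2 alone, few clustered genes passed the test. Those that did were lower, in a share near that of all tested genes. Of the 12 tested, 0 rose and 2 fell by limma (0 and 4 at an unadjusted p under 0.05), beside 19.5% of all tested genes that rose and 14.9% that fell. Over all 43, the siMbd2 libraries lay above CTR for 2 genes (4.65%), below for 13 (30.2%) and overlapped for 28, while 34.2% of the whole table lay higher and 31.0% lower. The share lying lower was thus near that of the table, and the share lying higher was smaller. Among the 31 under a mean of 1 RPKM, 2 lay higher and 7 lower, beside 20.7% and 33.0% of entries at that level. Hist1h1c read 2.86 and 3.12 RPKM in siMbd2, against 7.08 and 5.10 in CTR, and fell by 0.82 on the log2 scale (SE 0.13, adjusted p = 0.00267). Hist1h2bc read 4.05 and 6.10 RPKM in siMbd2, against 9.35 and 6.75 in CTR (log2 change -0.58, SE 0.18, adjusted p = 0.0347). That second call rested on siMbd2 replicate 1 and CTR replicate 1, with an adjusted p of 0.216 and 0.130 without them, and it also ended narrowly with only the 2 groups compared (adjusted p = 0.0523) and without miR-294 replicate 1 or 2 (adjusted p = 0.0513 and 0.0515).

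Several of the other tested clustered genes read lower in siMbd2 without passing. Hist1h3c read 1.28 and 1.25 RPKM in siMbd2 and 2.71 and 1.48 in CTR (log2 change -0.42, adjusted p = 0.0846), and was called lower without CTR replicate 2 (log2 change -0.71, adjusted p = 0.00283). Hist3h2a read 0.67 and 0.60 RPKM in siMbd2 and 1.15 and 0.90 in CTR (log2 change -0.31, adjusted p = 0.0648), and was called lower under 4 alternatives. These were leaving out CTR replicate 2 (adjusted p = 0.0456), a pseudocount of 0.1 (log2 change -0.61, adjusted p = 0.0406), quantile normalization (adjusted p = 0.0413) and no intensity trend (adjusted p = 0.04997). Hist1h4i, which rose with miR-294, read 5.79 and 6.75 RPKM in siMbd2 and 6.84 and 6.42 in CTR (log2 change -0.07, adjusted p = 0.603). The summed RPKM of all 43 was 0.722 times that of CTR, and by type 0.556 for H1, 0.771 for H2A, 0.664 for H2B, 0.639 for H3 and 0.894 for H4. The H1 value is mostly that of Hist1h1c, which averaged 2.99 of 3.73 RPKM in siMbd2 and 6.09 of 6.715 in CTR. The other 3 clustered H1 genes overlapped CTR. Of the untested genes, Hist2h3c1 stood at 0.27 and 0.26 RPKM in siMbd2 and 1.16 and 1.15 in CTR. The 2 genes that lay higher in siMbd2 were Hist1h4a, at 0.94 and 0.62 RPKM in siMbd2 and 0.25 and 0.42 in CTR, and Hist1h2ab, at 0.31 and 0.28 in siMbd2 and 0.10 and 0 in CTR. These genes were singled out after their values were seen.

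Of the variants 2 rose and 3 fell in siMbd2, beside the same 19.5% and 14.9% of all tested genes, and the libraries lay apart for 4 in each direction. No called change exceeded 0.42 in size on the log2 scale. H2afx read 102 and 96.8 RPKM in siMbd2, against 144 and 117 in CTR, and fell (log2 change -0.39, adjusted p = 0.0137), the opposite direction of miR-294. H2afy read 88.6 and 89.0 RPKM in siMbd2, against 120.2 and 107 in CTR, and fell (log2 change -0.35, adjusted p = 0.00761). H2afy2 read 15.9 and 14.6 RPKM in siMbd2, against 20.2 and 18.8 in CTR, and fell (log2 change -0.34, adjusted p = 0.0202). The macroH2A genes were thus lower than CTR in both treatments, and lowest with miR-294.

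H2afj read 18.9 and 18.9 RPKM in siMbd2, against 15.5 and 12.5 in CTR, and rose (log2 change 0.42, adjusted p = 0.0119). H2afz read 555 and 567 RPKM in siMbd2, against 489 and 438 in CTR, and rose (log2 change 0.28, adjusted p = 0.0122), with an adjusted p of 0.0697 after quantile normalization. All 5 of these calls ended without either siMbd2 library, at an adjusted p between 0.0534 and 0.162, with the direction kept. H1fx read 52.5 and 49.1 RPKM in siMbd2 and 47.1 and 35.0 in CTR (log2 change 0.32, adjusted p = 0.0694), and was called higher without CTR replicate 1 (log2 change 0.52, adjusted p = 6.54e-04) and with median-of-ratios scaling (adjusted p = 0.0465). H3f3b read 320.1 and 332 RPKM in siMbd2 and 367 and 340.4 in CTR (log2 change -0.12, adjusted p = 0.155), and was called lower without CTR replicate 2 (adjusted p = 0.0139) and after quantile normalization (adjusted p = 0.0228). H3f3a and H1f0 were not called (adjusted p = 0.637 and 0.342). H2afv was not called either (log2 change 0.13, adjusted p = 0.184), but was called higher without CTR replicate 1 (log2 change 0.22, adjusted p = 0.0156).

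The comparison of miR-294 with siMbd2 sets the microRNA beside the siRNA against a single mRNA. Clustered genes were higher with miR-294. Of the 12 tested 10 rose and 0 fell, by limma and also at an unadjusted p under 0.05, beside 21.9% of all tested genes that rose and 35.5% that fell. These counts share the limit of the filter, since Hist1h2ae, Hist1h4b and Hist1h4d averaged under 1 RPKM in siMbd2 and in CTR. Hist3h2a and Hist3h2ba likewise entered through their miR-294 level, at 0.635 and 0.69 RPKM in siMbd2 and 1.025 and 1.14 in CTR. Over all 43 the miR-294 libraries lay higher for 36 genes (83.7%), lower for 0 and overlapped for 7, while 35.1% of the whole table lay higher and 45.8% lower. Among the 31 under a mean of 1 RPKM, 26 lay higher and 0 lower, beside 38.3% and 26.9% of entries at that level. Both miR-294 libraries exceeded both siMbd2 libraries in all 4 H1 genes and all 10 H4 genes, in 13 of 15 H2B, 6 of 7 H3 and 3 of 7 H2A genes. The summed clustered RPKM with miR-294 was 2.30 times that with siMbd2, against 1.12 times for the variants.

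The largest changes were those of Hist1h3c (log2 change 1.32, SE 0.17, adjusted p = 2.75e-04), at 4.95 and 4.40 RPKM in miR-294 and 1.28 and 1.25 in siMbd2, and Hist1h2bc (log2 change 1.19, SE 0.18, adjusted p = 6.03e-04), at 12.1 and 13.3 RPKM in miR-294 and 4.05 and 6.10 in siMbd2. Hist1h4i rose by 0.87, Hist3h2ba by 0.87, Hist3h2a by 0.83, Hist1h3g by 0.81, Hist1h1c by 0.67 and Hist1h2ae by 0.67 on the log2 scale. Hist1h4b (0.58) and Hist1h4d (0.35) passed at an adjusted p of 0.0327 each and lost the call when some libraries were left out, at up to 0.211 and 0.217. Against CTR, Hist1h1c had been called lower in siMbd2 and Hist1h4i higher in miR-294. Hist1h2af and Hist1h2ag were not called.

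Among the variants 3 were higher in miR-294 than in siMbd2 and 3 lower, beside the same 21.9% and 35.5% of all tested genes, and the libraries lay apart for 5 and 3. H2afx differed most upward (log2 change 0.89, SE 0.09, adjusted p = 9.33e-05), followed by H2afj (0.39, adjusted p = 0.00802) and H3f3b (0.37, adjusted p = 7.76e-04). H2afy2 was lower by a log2 change of -0.80 (adjusted p = 1.34e-04), H2afy by -0.69 (adjusted p = 1.01e-04) and H1fx by -0.42 (adjusted p = 0.0154). The H1fx call ended without either miR-294 library or siMbd2 replicate 1, at an adjusted p between 0.0504 and 0.0911, and that of H2afj without miR-294 replicate 2 (adjusted p = 0.0572). The ratio of H2afx to H2afy, 2 H2A variants of similar level in CTR, was 3.30 and 3.48 in miR-294, 1.15 and 1.09 in siMbd2, and 1.20 and 1.09 in CTR. H2afz, H2afv, H3f3a and H1f0 were not called, although H2afz and H3f3a were called higher with median-of-ratios scaling (log2 change 0.17 and 0.16, adjusted p = 0.0167 and 0.0193). H3f3a was called lower after quantile normalization (log2 change -0.14, adjusted p = 0.0448). H2afz was also called higher with only these groups in the fit, or with either CTR library left out (adjusted p between 0.0239 and 0.0241).

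**Figure D5:**
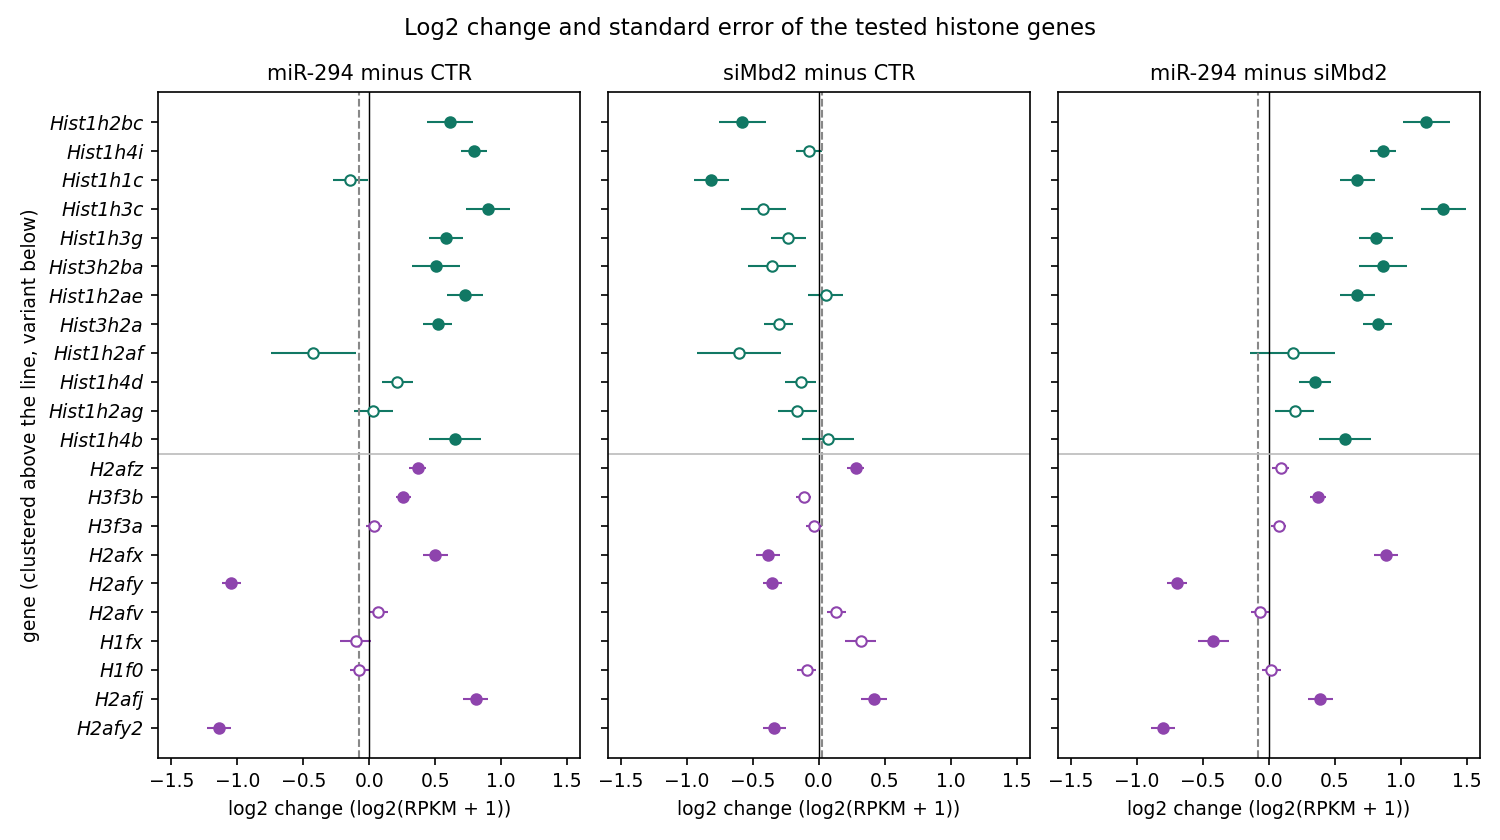
Log2 change with its standard error of the 22 tested histone genes, 12 clustered above the grey line and 10 variant below it, in the 3 comparisons. Filled points passed an adjusted p of 0.05 in limma, and the dashed line is the median of all tested genes (-0.08, 0.02 and -0.08); 8, 0 and 10 clustered genes rose.

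Genes that make histone mRNA or handle histone proteins did not move as a block. Of 12 genes of histone mRNA processing, all tested, 4 rose and 2 fell with miR-294, 3 rose and 0 fell with siMbd2, and 1 was higher and 3 lower in miR-294 than in siMbd2. Of all tested genes 27.7% rose and 36.8% fell with miR-294, 19.5% rose and 14.9% fell with siMbd2, and 21.9% were higher and 35.5% lower in miR-294 than in siMbd2. Slbp, the stem-loop binding protein, read 52.5 and 48.2 RPKM in miR-294, 46.9 and 47.2 in siMbd2, and 47.4 and 47.9 in CTR, and was called in none of the 3 comparisons (adjusted p = 0.306, 0.837 and 0.218), though higher in miR-294 than in siMbd2 with median-of-ratios scaling (adjusted p = 0.0348). Npat, the coactivator of clustered histone genes, read 9.71 and 9.65 RPKM in miR-294 and 11.1 and 12.5 in CTR (log2 change -0.26, adjusted p = 0.0188). That call ended with both other scalings (adjusted p = 0.0724 and 0.378) and without miR-294 replicate 1 or 2 (adjusted p = 0.0843 and 0.0927). Zfp473, the mouse counterpart of a zinc finger protein of the human histone pre-mRNA processing complex, was higher than CTR by 0.54 with miR-294 and by 0.55 with siMbd2.

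Of 26 tested histone chaperones and exchange factors 14 rose and 5 fell with miR-294, 6 rose and 3 fell with siMbd2, and 11 were higher and 8 lower in miR-294 than in siMbd2. These counts stand beside 27.7% and 36.8%, 19.5% and 14.9%, and 21.9% and 35.5% of all tested genes called higher and lower in the same comparisons. Nasp, a chaperone of H1 and of soluble H3 and H4, had the largest increase, reading 390.0 and 386 RPKM in miR-294, 194 and 189 in siMbd2, and 194 and 215 in CTR (log2 change from CTR 0.92 with miR-294, adjusted p = 7.79e-06, and -0.09 with siMbd2, adjusted p = 0.272, but 0.0105 without CTR replicate 1). Anp32e, which removes H2A.Z, read 152 and 151 RPKM in miR-294, 102 and 96.7 in siMbd2, and 137 and 130.2 in CTR. Its log2 change was -0.42 with siMbd2 (adjusted p = 0.00127) and 0.18 with miR-294 (adjusted p = 0.0178), the second turning to -0.054 after quantile normalization and ending without miR-294 replicate 1 or 2 (adjusted p = 0.106 and 0.1003). Cenpa, the centromeric H3 variant outside the symbol rule, rose by 0.61 with miR-294. Asf1b, a chaperone of newly made H3 and H4, fell by 0.46 with miR-294 and rose by 0.46 with siMbd2, the second call ending without siMbd2 replicate 1 or CTR replicate 2 (adjusted p = 0.130 and 0.0560). Ubn1, of the complex that deposits the H3 variant outside replication, fell by 0.69 with miR-294.

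Of 25 tested S-phase genes 9 rose and 6 fell with miR-294, 4 rose and 7 fell with siMbd2, and 13 were higher and 5 lower in miR-294 than in siMbd2. The shares of all tested genes called higher and lower were again 27.7% and 36.8%, 19.5% and 14.9%, and 21.9% and 35.5%. Their median log2 changes were 0.05, -0.07 and 0.22, against 0.55, -0.27 and 0.74 for the 12 tested clustered histone genes. Ccne1, the cyclin that drives entry into S phase, read 107 and 98.7 RPKM in miR-294, 56.3 and 58.2 in siMbd2, and 46.5 and 45.2 in CTR. It rose by 1.15 with miR-294 and by 0.32 with siMbd2 on the log2 scale (adjusted p = 2.99e-06 and 0.00578), the second call ending without siMbd2 replicate 2 (adjusted p = 0.0702). Mcm5, of the replicative helicase, rose by 0.67 with miR-294, and E2f1, an S-phase transcription factor, fell by 0.57. Lig1 and Tyms, for a DNA ligase and the enzyme that makes thymidylate, fell by 0.38 and 0.33 with siMbd2. They were not called with miR-294 (log2 change 0.04 and 0.06).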

How the data were processed

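The deposited table holds 1 RPKM value per gene and library, per the file headers; the authors' ratio columns were not used. The submitters' processing notes name CASAVA 1.7, STAR 2.3.0, Cufflinks and mm10, without roles. Annotation and library depth are items not given in the sources used here, so no counting error can be given and the precision is that of 2 libraries a group. Duplicated symbols did not touch the members. Values were analysed as log2(RPKM + 1) with limma 3.58.1 under R 4.3.3 (trend on intensity), over the 11428 genes averaging 1 RPKM or more, with 3 residual and 5.38 prior degrees of freedom, two-sided. The fit was tested on simulated data. Annotation and sequence searches used GENCODE M21 and RefSeq tables in Python 3.11.15 (numpy 2.4.6, pandas 2.3.3; plots in matplotlib 3.10.9).

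The members and lists were chosen with earlier results of these data known. Described by name were all variants, the 10 clustered genes highest on average and those with the 4 highest or lowest log2 changes per comparison, up to 4 genes per list and comparison by absolute log2 change, and Mbd2, Slbp and Npat; marker genes and Hist1h2ag, Hist1h4b, Hist2h3c1, Hist1h4a, Hist1h2ab and Hist1h2bn were added after their values were seen. Libraries apart means that both libraries of a group lie beyond both of the other. Alternatives were other scalings, pseudocount, filters, trend, samples in the fit, a replicate block and leaving out each library.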

Additional observations from a re-analysis of the deposited data

How the results depend on the processing

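Without the filter on the mean, 24 of 43 clustered genes were called in miR-294 against CTR, all higher, 25 in miR-294 against siMbd2, all higher, and 6 in siMbd2 against CTR (1 higher, 5 lower). Of all 13743 entries that fit called 26.1% higher and 33.4% lower in miR-294 against CTR, 21.3% and 31.1% in miR-294 against siMbd2, and 16.5% and 13.5% in siMbd2 against CTR. With a minimum mean of 5 RPKM only 2 clustered genes were tested, and 2, 2 and 1 were called. In siMbd2 against CTR, 1 clustered gene was called with only the 2 groups compared, and between 1 and 4 when a library was left out. The 5 variant calls there went to 0 without siMbd2 replicate 1 or 2 (5 and 6 at an unadjusted p under 0.05 in limma) and to 7 without CTR replicate 1; a lone library is assumed to vary like the other groups. With median-of-ratios scaling the summed RPKM was 72.9 for clustered and 1785 for variant genes in miR-294, and 1508 for variant genes in siMbd2. The sign turned after quantile normalization for H3f3a against CTR (-0.26) and against siMbd2 (-0.14), and Anp32e against CTR (-0.054) with miR-294; the cause was not tested. That normalization moved the median of all tested genes from -0.08 to 0.03 in miR-294 against siMbd2.

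Same-numbered replicates deviated together only weakly (correlations of 0.02, 0.12 and 0.13), and with 2 per group the numbers share only a number. With the replicate block, clustered calls were 8, 3 and 10 and variant calls 6, 6 and 6 in miR-294 against CTR, siMbd2 against CTR and miR-294 against siMbd2. The block added calls in siMbd2 against CTR for Hist1h3c (adjusted p = 0.0402) and H1fx (adjusted p = 0.0256), and ended no histone call. Classing genes by a stem-loop match in place of the symbol took in 9 tested clustered genes and the variant H2afx. It gave 7 calls higher, 2 lower and 9 higher in the same comparisons, beside 27.7%, 14.9% and 21.9% of all tested genes. With median-of-ratios scaling, an alternative chosen after seeing the data for these counts, 35, 2 and 37 of the 43 clustered genes lay higher and 1, 15 and 0 lower in the same 3 comparisons, beside 39.8%, 33.9% and 41.6% of all entries higher and 39.2%, 32.4% and 40.0% lower. The ESC marker sum without Dppa5a was also added after seeing the data. Of single-gene values for all named genes and alternatives, 1892 kept direction and side of the threshold, 115 lost and 54 gained a call.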
